A study of Quercus robur with 12 samples.

Results

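The miR164 family was described in root tips of pedunculate oak (Quercus robur) from small RNA sequencing counts. All miRNAs of the table whose name starts with qrb-miR164 were taken as members, whatever their counts, which gave 5 (qrb-miR164a, qrb-miR164b, qrb-miR164c, qrb-miR164d and qrb-miR164e, written below without the species prefix) of 75 miRNAs. Of these 75, 51 were known miRNAs of 23 families and 24 were named by their own sequence. Small RNAs came from root tips, the zone of the meristem, of taproots (TR) and of lateral roots (LR). They were taken from wild-type seedlings, 1 year old, that had an acclimatization of 8 weeks under full watering before the treatment started. Control plants (CT) stayed fully watered, and plants under drought stress (DS) were kept for 4 weeks at a soil moisture of 25% of the control. The 4 groups, TR-CT, TR-DS, LR-CT and LR-DS, had 3 libraries each, and a replicate was made of 10 to 15 root tips. Both seedlings grown in containers and seedlings sown as acorns belong to the study. Which of them gave a library is not in the sample labels. The part of cultivation in a difference by drought or by root type therefore cannot be told apart here. The labels name the 3 libraries of a group as biological replicates.

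miR164 is a miRNA family of land plants that guides the cleavage of transcripts of NAC transcription factors. Among its targets in Arabidopsis are the CUP-SHAPED COTYLEDON genes, which set organ boundaries, the leaf senescence regulator ORESARA1, and NAC1, a factor that carries the auxin signal for lateral root formation. In Arabidopsis roots auxin induces miR164, which clears NAC1 mRNA and limits lateral root emergence. Members of a plant miRNA family are made from separate genes, and their mature sequences can be identical or differ by a few bases, so that a read can often not be given to a single gene.

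The sources used here hold 1 sequence under the family name, the query of a cleavage site (degradome) search, without saying which of the 5 members or which arm of the hairpin it stands for. It is shown as the only sequence listed under the family name with a transcript in these oak roots. It may be the strand opposite the mature miRNA in the hairpin, so its seed and site are not taken as those of mature miR164. Its capitals mark the seed of the query, the bases at positions 2 to 8 from the 5′ end. Plant miRNAs pair with their targets along most of their length. The second line is the cleavage site listed for it, at positions 2229 to 2249 of the oak transcript Qrob_T0323590.2, 5′ to 3′, with the bases that form Watson-Crick pairs with the query in capitals.
qrb-miR164 query: cAUGUGCUcuagcucuccagc
target site: uuUGGgGAGuUgGAGgACgUG
The query has 21 bases, a GC content of 57.1% and a C as its first base. Of its bases, 14 form Watson-Crick pairs with the site, 5 form G:U pairs and 2 remain unpaired. Within the seed, 5 bases form Watson-Crick pairs, 1 forms a G:U pair and 1 is unpaired. None of the 24 miRNAs named by sequence has the same seed, and the nearest differs from the query in 10 bases. None of the 26 queries searched under other family names has the same seed either, with 12 differences in the nearest. The transcript has no annotation in the sources used here and is therefore given without a gene name, and no value below rests on the site.

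The libraries held between 160039 (LR-DS replicate 3) and 1267473 counts (TR-CT replicate 2). The most abundant miRNA of the table, a sequence of 16 nt, held 34.1% to 89.1% of each library, so that the depth left for all other miRNAs was much smaller than the totals. Levels are therefore given as the counts themselves and as CPM, counts scaled to a common library size that was adjusted by TMM factors, which align most miRNAs between libraries. A floor of 3 counts corresponds to between 2.37 and 18.7 CPM before these factors, depending on the library. Floors and the intervals of shares describe counting error alone, because reads that carry no molecular identifiers cannot be counted as independent molecules. The table holds miRNAs and no cell type marker genes, so the labelled tissue was not checked.

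miR164d was the dominant member. Over the 12 libraries the family had 2921 counts, of which miR164d took 1996, or 68.3%. miR164c followed with 552 counts (18.9%), and the 3 minor members had 135 (miR164a, 4.62%), 122 (miR164b, 4.18%) and 116 counts (miR164e, 3.97%). miR164d had the most counts in 11 of the 12 libraries. In LR-DS replicate 3, the library with the fewest family counts, miR164c led with 16 of 29 counts. Among the 23 known families miR164 ranked between place 13 and place 15 in every library, with 0.0996% to 0.324% of the counts of known miRNAs. All 5 members had a count in at least 11 libraries and passed the filter of at least 1 count in every comparison, whereas the filterByExpr filter kept 4 of them in taproots, 3 in lateral roots and 2 between control roots. In such bulk samples fewer cells of a type and less RNA per cell cannot be told apart. miR164c and miR164d never fell below 8 counts, whereas miR164a and miR164e had at most 3 counts in 4 libraries each and miR164b in 2 libraries.

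**Figure D1:**
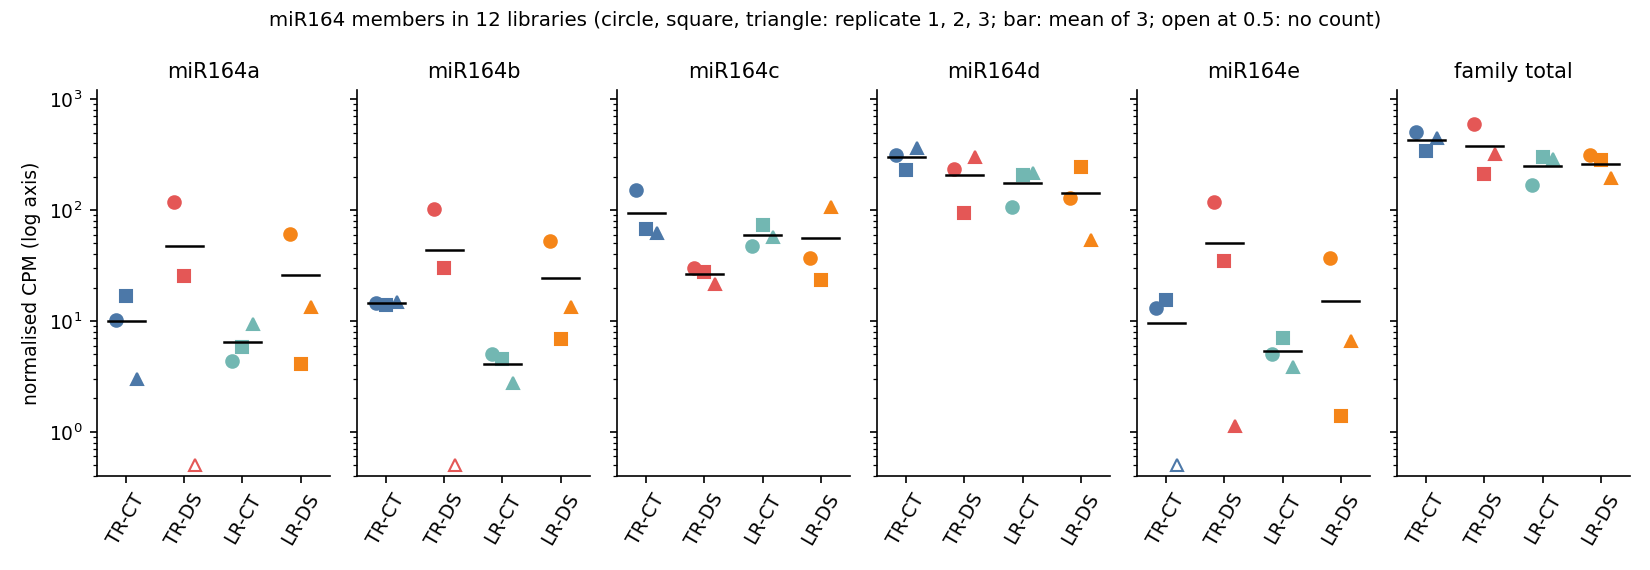
Level of each miR164 member and of the family total in CPM after TMM scaling (log axis) in the 12 libraries, with a circle, a square and a triangle for replicates 1, 2 and 3, a bar for the mean of 3 and an open symbol placed at 0.5 for a library with no count. miR164d lies between 53.3 and 365 CPM, whereas miR164a, b and e range from no count to 117 CPM.

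For miR164d, replicates 1, 2 and 3 of TR-CT held 216, 163 and 123 counts, and those of TR-DS 62, 41 and 264. The LR-CT libraries held 148, 325 and 392 counts of it, and the LR-DS libraries 76, 178 and 8. On the normalised scale, the TR-CT level was 314, 228 and 365 CPM and the TR-DS level 234, 94.7 and 299 CPM, while LR-CT reached 107, 209 and 216 CPM and LR-DS 128, 245 and 53.3 CPM. The drought groups were spread more widely than the control groups, and each overlapped its control. The group means ordered TR-CT (303 ± 69.2 CPM, SD, n = 3), TR-DS (209 ± 104), LR-CT (177 ± 61.3) and LR-DS (142 ± 96.6). Every pair of neighbours in this order overlapped.

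For miR164c, the TR-CT libraries held 105, 48 and 21 counts, the TR-DS libraries 8, 12 and 19, the LR-CT libraries 66, 114 and 104 and the LR-DS libraries 22, 17 and 16. The taproot levels were 152, 67.3 and 62.4 CPM for TR-CT and 30.3, 27.7 and 21.5 CPM for TR-DS. The lateral root levels were 47.5, 73.3 and 57.4 CPM for LR-CT and 37.2, 23.4 and 107 CPM for LR-DS. TR-DS was the tightest and the lowest group of this member, and all its libraries lay below all of TR-CT. The means were 94.0 ± 50.7 CPM for TR-CT, 59.4 ± 13.0 for LR-CT, 55.7 ± 44.6 for LR-DS and 26.5 ± 4.50 for TR-DS (SD, n = 3), and neighbours in this order overlapped. The highest value in LR-DS, 107 CPM, came from the 16 counts of its shallowest library, replicate 3.

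The minor members were near the limit of detection in many libraries and high in the same few. The counts of miR164a were 7, 12 and 1 for TR-CT, 31, 11 and 0 for TR-DS, 6, 9 and 17 for LR-CT and 36, 3 and 2 for LR-DS. The counts of miR164b were 10, 10 and 5 for TR-CT, 27, 13 and 0 for TR-DS, 7, 7 and 5 for LR-CT and 31, 5 and 2 for LR-DS. The counts of miR164e were 9, 11 and 0 for TR-CT, 31, 15 and 1 for TR-DS, 7, 11 and 7 for LR-CT and 22, 1 and 1 for LR-DS. Each of the 3 members thus had its 2 highest counts in TR-DS replicate 1 and LR-DS replicate 1, at 22 to 36 counts, while the other replicates of the drought groups held between 0 and 15 counts. The difference between the highest and the lowest of the 3 members was at most 5 counts in 10 of the 12 libraries. For miR164a and miR164e, Pearson's r of log2 CPM over the 12 libraries was 0.93 and Spearman's rho 0.94. For miR164a and miR164b these were 0.91 and 0.71, and for miR164b and miR164e 0.82 and 0.67. miR164c and miR164d showed no such relation (r = -0.07, rho = -0.06), and between miR164d and the minor members the coefficients were negative (r between -0.30 and -0.20), with rho of -0.45 for miR164a, -0.40 for miR164e and -0.014 for miR164b. These coefficients describe 12 libraries that share depth and scaling within each library, and low counts carry much of the spread. Whether the minor members have the same mature sequence is not given in the sources used here, so the division of reads among them is uncertain and their sum is the safer quantity.

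**Figure D2:**
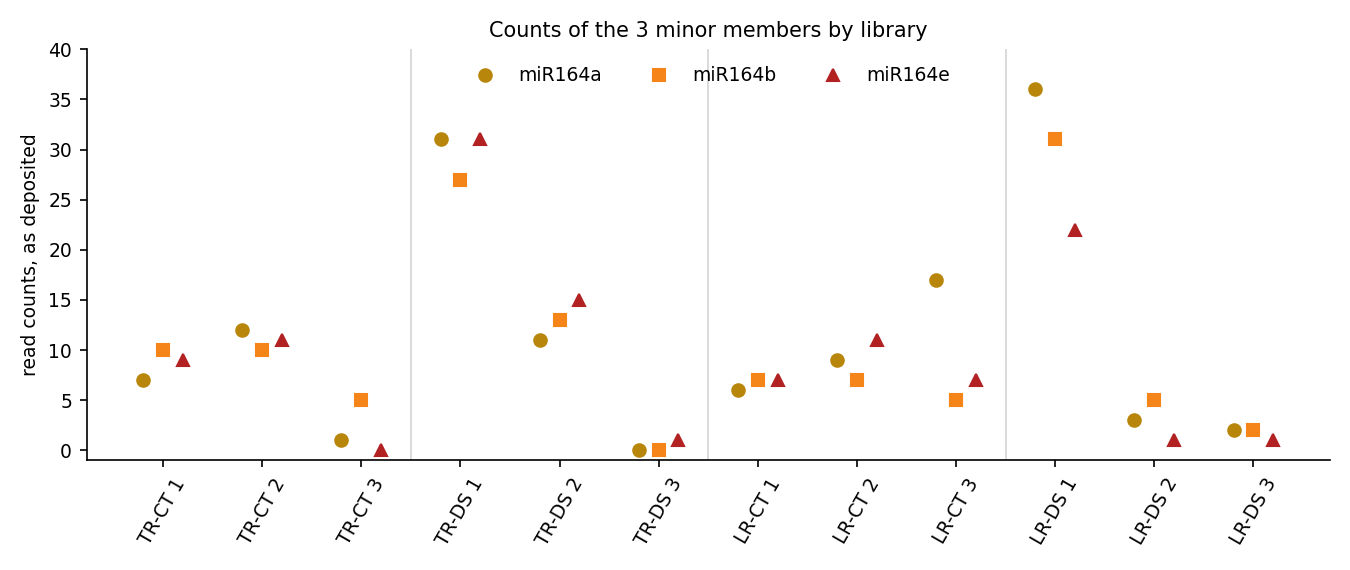
Deposited read counts (vertical axis) of miR164a, miR164b and miR164e in each of the 12 libraries, grouped by condition along the horizontal axis. The counts of the 3 members lie close to each other in most libraries, with 22 to 36 counts in TR-DS replicate 1 and LR-DS replicate 1 and 0 or 1 count in TR-DS replicate 3.

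The composition of the family, which needs no scaling between libraries, varied less among control libraries than among drought libraries, a difference in spread that was not tested. In control roots miR164d took 62.2%, 66.8% and 82.0% (TR-CT) and 63.2%, 69.7% and 74.7% (LR-CT) of the family counts. Under drought it took 39.0%, 44.6% and 93.0% (TR-DS) and 40.6%, 87.3% and 27.6% (LR-DS). The 6 drought libraries therefore lay on both sides of the control range, and the SD of the share was 29.7 percentage points for TR-DS and 31.4 for LR-DS, compared with 10.3 for TR-CT and 5.73 for LR-CT. The Wilson 95% intervals of the extreme libraries did not meet, with 31.8% to 46.7% in TR-DS replicate 1 and 89.4% to 95.4% in TR-DS replicate 3, whereas the 8 of 29 counts in LR-DS replicate 3 allowed 14.7% to 45.7%. The difference of the mean share of miR164d, drought minus control, was -11.5 percentage points in taproots (exact two-sided permutation test, p = 0.6, adjusted p = 0.8) and -17.4 points in lateral roots (exact permutation p = 0.4, adjusted p = 0.8). The difference of lateral roots minus taproots was -1.13 points in control roots (exact permutation p = 1, adjusted p = 1) and -7.01 points under drought (exact permutation p = 0.6, adjusted p = 0.8). These 4 comparisons were adjusted together, and 3 libraries against 3 cannot give a p below 0.1. With the counts of each group pooled, the sign of the taproot comparison turned to a difference of 0.852 points and that of the control comparison to 2.87 points.

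Shares within the family are parts of the same counts, so those of the minor members are not independent of those of miR164d. Together the minor members took 7.49%, 13.5% and 4.0% (TR-CT) and 8.55%, 5.79% and 5.52% (LR-CT) of the family counts. Under drought they took 56.0%, 42.4% and 0.352% (TR-DS) and 47.6%, 4.41% and 17.2% (LR-DS). A share above 40% was reached in 3 libraries, all of them from drought-stressed roots, while TR-DS replicate 3 was below the control range, which ran from 4.0% to 13.5%. In these 3 libraries the minor members together exceeded miR164c, and in 2 of them they exceeded miR164d. The ratio of miR164c to miR164d counts was 0.486, 0.294 and 0.171 for TR-CT, 0.129, 0.293 and 0.0720 for TR-DS, 0.446, 0.351 and 0.265 for LR-CT, and 0.289, 0.0955 and 2 for LR-DS. The value above 1 again came from LR-DS replicate 3.

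**Figure D3:**
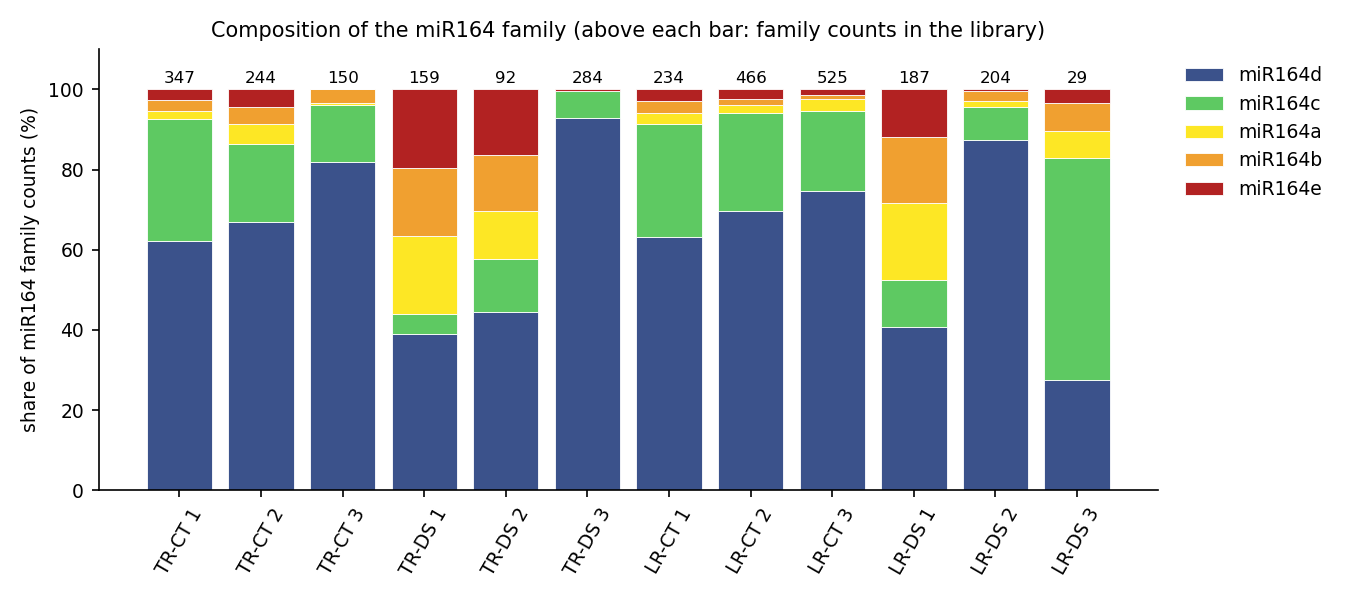
Share of the family counts (percent, vertical axis) taken by each miR164 member in each of the 12 libraries, with the number of family counts above each bar. miR164d takes 62.2% to 82.0% in the 6 control libraries and 27.6% to 93.0% in the 6 drought libraries.

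The first question was whether drought changed the family in taproots. None of the 5 members passed the threshold in TR-DS against TR-CT (edgeR quasi-likelihood F test, Benjamini-Hochberg adjusted p of 0.05), and neither did any of the 75 miRNAs (0%). At an unadjusted p of 0.05, 3 of the 75 miRNAs (4%) and none of the members were below the limit. DESeq2 called none of the members and 2 of the 75 miRNAs (2.67%). miR164c had a log2FC of -1.22 (SE 1.06), with an edgeR adjusted p of 0.997. It was the only member whose groups did not overlap, with TR-CT at 62.4 to 152 CPM and TR-DS at 21.5 to 30.3 CPM, compared with 9.33% of all miRNAs that did not overlap in this contrast and 8% that were lower without overlap. The exact two-sided permutation p of 0.1 for miR164c is the smallest that 20 arrangements allow, and the non-overlap was present with library size alone and absent once the most abundant sequence was left out of the library size. Over all alternatives of scaling, test, filter and left-out library the log2FC of miR164c lay between -2.06 and -1.06, and its adjusted p between 0.529 and 0.998.

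The minor members had positive log2FC in taproots, with 2.32 (SE 1.82) for miR164a, 1.88 (SE 1.69) for miR164b and 2.53 (SE 1.78) for miR164e, none of them beyond the replicate spread (adjusted p = 0.997 for each, edgeR). The 3 drought libraries held 89, 39 and 1 counts of the minor members together. Their summed level was 37.8, 46.2 and 17.8 CPM in TR-CT and 337, 90.1 and 1.13 CPM in TR-DS, which overlapped (exact permutation p = 0.8). Without TR-DS replicate 1 the log2FC of miR164a was 0.53 (SE 2.34). miR164d had a log2FC of 0.08 (SE 0.84, adjusted p = 0.997), while its mean log2 CPM was 0.65 lower in TR-DS (7.58 ± 0.86) than in TR-CT (8.23 ± 0.34, SD, n = 3). The TMM factors of the first value came from the 6 taproot libraries and those of the second from all 12, and a fit to all 12 gave a log2FC of -0.53. The family total was 504, 342 and 446 CPM for TR-CT and 601, 213 and 321 CPM for TR-DS, with a log2FC of -0.14 (SE 0.72) and an adjusted p of 0.978 over 47 family totals, of which none (0%) passed. TR-DS held both the highest and the lowest family level of the 6 taproot libraries, so the groups overlapped.

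In lateral roots no member of the family passed, while other miRNAs did. The threshold was passed by 24 of 75 miRNAs (32%) in LR-DS against LR-CT, 7 higher (9.33%) and 17 lower (22.7%), and by 0 of the 5 members. In 1 fit of all 12 libraries none of the 75 miRNAs (0%) passed in this comparison. At an unadjusted p of 0.05, 33 miRNAs (44%) and 1 member, miR164b, were below the limit. For miR164b the LR-CT libraries had 5.04, 4.50 and 2.76 CPM and the LR-DS libraries 52.4, 6.88 and 13.3 CPM, from 5 to 7 counts and from 31, 5 and 2 counts. Its mean count of 9.5 was below the 10 needed for a log2FC, and its edgeR quasi-likelihood p was 0.0296 (adjusted p = 0.0766). It was the only member whose groups did not overlap in this contrast, as 46.7% of all miRNAs did not and 14.7% were higher without overlap (exact permutation p = 0.1, the smallest possible), and the groups overlapped with library size alone. DESeq2 called miR164b (adjusted p = 0.00999), together with 46.7% of all miRNAs. It also passed in edgeR without LR-DS replicate 2 (adjusted p = 0.0389, with 28% of all miRNAs called) and without LR-DS replicate 3 (adjusted p = 0.0442, with 42.7% called). miR164b did not pass when LR-DS replicate 1, which held its 31 counts, was left out, nor when an LR-CT library was left out.

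miR164a had a log2FC of 2.03 (SE 1.08) in lateral roots, with an edgeR adjusted p of 0.165. Its level was 4.32, 5.78 and 9.38 CPM for LR-CT and 60.8, 4.13 and 13.3 CPM for LR-DS, so replicate 2 of the drought group was the lowest of the 6 libraries. Without LR-DS replicate 2 miR164a passed the threshold with a log2FC of 2.59 (SE 0.73, edgeR adjusted p = 0.0466), and without LR-DS replicate 1 its log2FC was 0.52 (SE 0.91). miR164e had 5.04, 7.07 and 3.86 CPM (LR-CT) and 37.2, 1.38 and 6.66 CPM (LR-DS), which overlapped, and its mean count was too low for a log2FC. The minor members together had 14.4 to 17.4 CPM in LR-CT and 150, 12.4 and 33.3 CPM in LR-DS, which overlapped (exact permutation p = 0.4). They also overlapped with library size alone, and lay higher in LR-DS without overlap once the most abundant sequence was left out of the library size.

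No difference beyond the replicate spread was found for the abundant members in lateral roots. miR164c had a log2FC of -0.18 (SE 0.79, edgeR adjusted p = 0.870) and miR164d of -0.29 (SE 0.66, edgeR adjusted p = 0.773). Both values moved when the shallowest library was left out. Without LR-DS replicate 3 the log2FC of miR164c was -0.76 (SE 0.43, edgeR adjusted p = 0.192) and that of miR164d 0.50 (SE 0.54, edgeR adjusted p = 0.438). The family total was 168, 299 and 289.6 CPM for LR-CT and 316, 281 and 193 CPM for LR-DS, and its log2FC of 0.27 (SE 0.53, edgeR adjusted p = 0.657) did not pass, whereas 18 of 47 family totals (38.3%) did. Without LR-DS replicate 3 the family total passed with a log2FC of 0.91 (SE 0.36, edgeR adjusted p = 0.0481), in a fit that called 61.7% of the family totals. The sign of the family total also depended on the scaling: it was -1.11 with library size alone, where the median of all miRNAs moved by -1.16, and LR-DS then lay below LR-CT without overlap. Without the most abundant sequence in the library size it was 0.79 (SE 0.56, edgeR adjusted p = 0.248), and LR-DS lay above LR-CT without overlap, at 1112 to 1692 against 778 to 953 CPM on that scale.

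**Figure D4:**
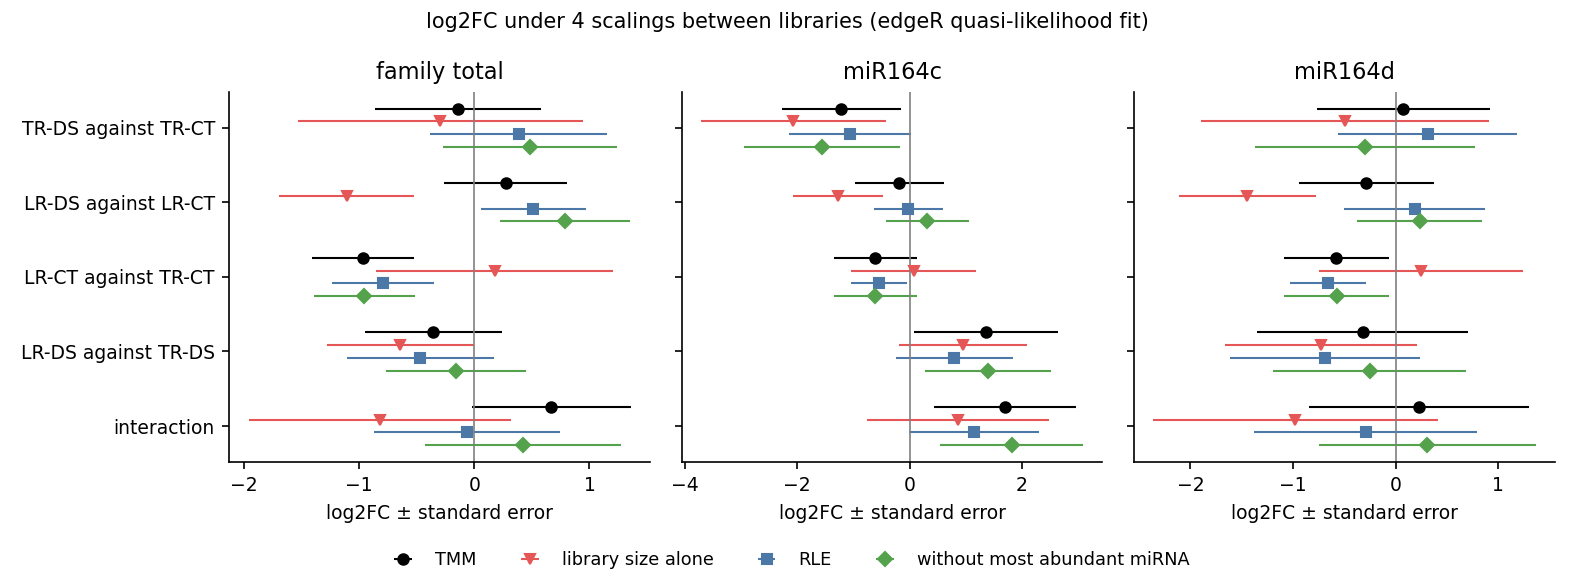
Fitted log2FC (horizontal axis, bars: standard error) of the family total, miR164c and miR164d in the 5 contrasts under 4 scalings between libraries. For miR164c in TR-DS against TR-CT the main value is -1.22 and all 4 scalings are below 0, whereas the family total in LR-DS against LR-CT is 0.27 with TMM and -1.11 with library size alone; none of the plotted values passed the threshold.

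The next comparison was that of the root types. Among control roots none of the 5 members and none of the 75 miRNAs (0%) passed in LR-CT against TR-CT, with 5 miRNAs (6.67%) and no member below an unadjusted p of 0.05 in edgeR. DESeq2 called none of the members and 7 of the 75 miRNAs (9.33%). The log2FC was -0.61 (SE 0.73, edgeR adjusted p = 0.809) for miR164c and -0.58 (SE 0.51, edgeR adjusted p = 0.699) for miR164d. miR164d lay between 107 and 216 CPM in LR-CT and between 228 and 365 CPM in TR-CT, without overlap. miR164b did not overlap either, with 2.76 to 5.04 CPM in LR-CT and 14.0 to 14.9 CPM in TR-CT, from 5 to 7 and from 5 to 10 counts. These were 2 of 5 members, compared with 30.7% of all miRNAs without overlap and 12% that were lower (exact permutation p = 0.1 for each, the smallest possible). Neither miR164d nor miR164b stayed apart with library size alone, and of the pair only miR164b stayed apart once the most abundant sequence was left out of the library size. The minor members together had 14.4 to 17.4 CPM in LR-CT and 17.8 to 46.2 CPM in TR-CT (exact permutation p = 0.1). Their groups overlapped on the other scales.

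The family total in well-watered roots was 168 to 299 CPM for LR-CT and 342 to 504 CPM for TR-CT, also without overlap (exact permutation p = 0.1), as were 31.9% of the 47 family totals, with 12.8% lower in LR-CT. The groups overlapped both with library size alone and without the most abundant sequence in the library size. Its log2FC of -0.97 (SE 0.45) did not pass the edgeR quasi-likelihood test (adjusted p = 0.303), and neither did any of the 47 family totals (0%). With library size alone it was 0.18, where the median of all miRNAs moved by 0.83. The most abundant sequence took 34.1% to 60.6% of the counts in LR-CT and 55.1% to 89.1% in TR-CT, and its part in the root type difference was not tested beyond these scalings.

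Under drought the root types were compared in LR-DS against TR-DS. None of the 5 members and none of the 74 miRNAs tested passed (0%), 4 miRNAs (5.41%) and no member were below an unadjusted p of 0.05, and DESeq2 called 1 of the 74 miRNAs (1.35%) and none of the members. No member's groups were free of overlap, compared with 4% of all miRNAs. The log2FC was 1.36 (SE 1.28) for miR164c, -0.32 (SE 1.03) for miR164d, -0.71 (SE 1.60) for miR164a, -0.65 (SE 1.59) for miR164b and -1.61 (SE 1.62) for miR164e, with edgeR adjusted p between 0.885 and 0.907. The family total had a log2FC of -0.36 (SE 0.59, edgeR adjusted p = 0.977).

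Whether drought acted differently in lateral roots than in taproots was tested by an interaction term fitted to the 12 libraries together. None of the 5 members and none of the 75 miRNAs passed (0%), with 5 miRNAs (6.67%) and no member below an unadjusted p of 0.05, and DESeq2 called 4 of the 75 miRNAs (5.33%) and none of the members. The interaction log2FC, the drought effect in LR minus that in TR, was 1.70 (SE 1.26, edgeR adjusted p = 0.744) for miR164c. It was 0.23 (SE 1.07) for miR164d, -0.16 (SE 2.29) for miR164a and 0.98 (SE 1.96) for miR164b, with edgeR adjusted p between 0.958 and 0.993, and 0.67 (SE 0.69, edgeR adjusted p = 0.799) for the family total. The sign for the family total and miR164d turned with library size alone, with RLE factors and with DESeq2, while that of miR164c was positive under each alternative run, between 0.49 and 2.08.

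The fits differed in their replicate spread. The root of the common dispersion, the relative spread between replicates beyond counting error, was 1.08 in the taproot fit, 0.565 in the lateral root fit, 0.755 between control roots and 0.978 between drought-stressed roots. The comparison of drought with control in lateral roots had the least spread over all miRNAs. There the standard errors of the members with a log2FC were 0.66 to 1.08. For miR164c and miR164d they were smaller between control roots, at 0.73 and 0.51, than in lateral roots, at 0.79 and 0.66.

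The family was set beside other miRNAs of auxin signalling and lateral root formation, namely miR160 and miR167, which target auxin response factors, miR390, which triggers the tasiRNAs that silence such factors, and miR393, which targets auxin receptors. None of these 9 miRNAs passed in taproots, where their median log2FC was 0.40 against 0.02 over all miRNAs. In lateral roots 1 rose, 1 fell and 7 did not pass, while 32% of all miRNAs passed, with a median of 0.37 against -0.29 over all miRNAs. miR393a rose by a log2FC of 4.12 (SE 0.83, edgeR adjusted p = 0.00331), with 14 to 23 counts in the LR-CT libraries and 8 to 189 in the LR-DS libraries. On the log2 CPM scale it lay between 3.36 and 4.11 in LR-CT and between 5.80 and 8.33 in LR-DS, without overlap. In this contrast 46.7% of all miRNAs did not overlap, and 14.7% were higher without overlap. miR390a fell, with a log2FC of -1.27 (SE 0.43, edgeR adjusted p = 0.0318), with 3879, 7068 and 7181 counts in control libraries and 951, 809 and 296 counts under drought. Neither call held in 1 fit of all 12 libraries, where the adjusted p in edgeR was 0.194 for miR393a and 0.238 for miR390a. The other abundant miRNAs of this list had log2FC of -1.02 (miR167a, SE 0.45, edgeR adjusted p = 0.0952), -0.38 (miR390b, SE 0.47, edgeR adjusted p = 0.559) and 1.18 (miR167b, SE 0.49, edgeR adjusted p = 0.0766). No miRNA of the list passed in either root type comparison or in the interaction.

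Another list held 21 miRNAs in other conserved families that target transcription factors, such as the MYB, TCP, GRAS, HD-ZIP III and growth-regulating factor families. In lateral roots under drought 3 of them rose, 5 fell and 13 did not pass, while 24 of all 75 miRNAs (32%) passed. Their log2FC there lay on both sides of 0, with 10 above and 11 below. The median was -0.99 against -0.29 over all miRNAs, and in 1 fit of all 12 libraries none of the 21 passed. None of them passed in taproots (median 0.26), in the root type comparisons or in the interaction. The median over the miR164 members in taproots was 1.88, with 4 of 5 above 0. Over all miRNAs the median was 0.02, with 39 of 75 above 0. Of the members above 0, miR164d was at 0.08 and turned below 0 in other settings. The rest were the minor members, among which the division of reads is uncertain. The median of 1.88 is the value of a minor member, with 0 to 27 counts per library in taproots, and describes these libraries only.

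The miRNAs whose levels followed miR164d most closely over the 12 libraries were miR396b (Pearson's r of log2 CPM = 0.79), miR396c (0.77) and miR168a (0.76). miR396 targets growth-regulating factors, and miR168 targets ARGONAUTE1, the protein that carries most plant miRNAs. They stood at the top of 58 miRNAs outside the family with a mean of at least 10 counts, for which the median r was 0.10 and the lowest -0.74. Like miR164d, miR396b had its highest counts in LR-CT replicates 2 and 3 (517 and 469, with 277 in replicate 1) and was lowest in LR-DS replicate 3, where it had no count, which allows up to 3 counts of 160039. Such counts also follow depth. In log2 CPM, the scale of r, miR164d and miR396b were highest in TR-CT replicate 3 (8.52 and 9.12). Their lowest values were in LR-DS replicate 3 (5.80 and 1.33), and the part of this library in r was not tested. For miR168a the LR-CT libraries had 1829, 3391 and 3566 counts and the LR-DS libraries 587, 766 and 97. The points share library, depth and scaling, so r is a description of these libraries.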

How the data were processed

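The authors trimmed the reads with Cutadapt, mapped and quantified them with ShortStack, and deposited whole-number read counts per miRNA without normalisation. Per the labels, the submitters' processing notes also name FastQC, HISAT2 and Bowtie. All 12 columns were mapped to samples by title, since the description label of LR-DS replicate 3 repeats that of replicate 2.

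The analysis used edgeR 4.0.16 under R 4.3.3. In each comparison miRNAs with at least 1 count were kept, TMM factors were computed over the libraries compared, and groups were tested by the quasi-likelihood F test with Benjamini-Hochberg adjustment over all miRNAs at 0.05. Family totals were summed before normalisation and tested over 47 totals with TMM factors of their own. The standard error of a log2FC is its absolute value divided by the root of F. A member's log2FC is given only for a mean of at least 10 counts over the libraries compared, which left 19 of 25 values. Levels used TMM factors over all 12 libraries (0.510 to 1.84) and log2 CPM a prior count of 2. Shares and single levels were compared by exact permutation of libraries. Python 3.11.15 served for plots and summaries. Simulated counts with known changes were used to check the test. Only changes larger than those fitted for the miR164 members were simulated, so what the test could find at their size was not tested.

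The members and lists were chosen with earlier results of these data known. Named were all 5 members, the 3 miRNAs most correlated with miR164d, the most abundant sequence, and the miRNAs of the auxin list with the most counts. In addition, miR393a was named after its values were seen. Alternatives were DESeq2 1.42.0, the filterByExpr filter, scaling by RLE factors, by library size alone or without the most abundant sequence, a joint fit of the 12 libraries, a replicate block, and leaving out each library. Total counts per library were 160039 to 1267473. No replicate pair was within sampling noise of another. From the degradome search only the query sequences and the listed site were used, without its read values. Gene expression, hormone and RT-qPCR data were not used here.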

Additional observations from a re-analysis of the deposited data

How the results depend on the processing

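The call of 0 members was the same under every alternative in the taproot, both root type and the interaction comparisons. In lateral roots under drought DESeq2 called 1 member, and leaving out a library gave 0 to 2. The number of all miRNAs called there was 24, against 35 with library size alone (33 lower), 35 with DESeq2, 17 with the replicate block and 0 in 1 fit of all 12 libraries.

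Signs that turned belonged to values that did not pass. For the family total they were 0.38 (RLE), 0.48 (without the most abundant sequence) and 0.38 (DESeq2) in taproots, -1.11 (library size) in lateral roots, 0.18 (library size) in control roots, and -0.82 (library size), -0.064 (RLE) and -0.053 (DESeq2) for the interaction. For miR164d they were -0.49 (library size), -0.30 (without the most abundant sequence), -0.075 (replicate block) and -0.53 (1 fit of all 12 libraries) in taproots, 0.18 (RLE), 0.24 (without the most abundant sequence) and 0.18 (DESeq2) in lateral roots, 0.25 (library size) in control roots, and -0.98 (library size), -0.29 (RLE), -0.28 (DESeq2) and -0.17 (filterByExpr) for the interaction. For miR164c they were 0.32 (without the most abundant sequence) in lateral roots and 0.072 (library size) in control roots. For miR164b they were 0.13 (replicate block) under drought and -0.19 (library size) for the interaction, and for miR164a 0.21 (without the most abundant sequence) for the interaction. The share of miR164d turned with pooled counts to 0.852 points in taproots and 2.87 points in control roots. Library size alone moved the median of all miRNAs by -0.45 in taproots, -1.16 in lateral roots, 0.83 in control roots, -0.40 under drought and -1.23 for the interaction. Other causes were not tested.

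Leaving out each library gave a family total of -0.34 to 0.55 in taproots, 0.077 to 0.91 in lateral roots and -0.58 to 0.051 under drought. miR164d ranged from -0.48 to 0.37 in taproots, -0.88 to 0.50 in lateral roots, -1.38 to 0.066 under drought and -0.41 to 0.58 for the interaction. miR164c ranged from -0.76 to 0.40 in lateral roots and -0.90 to 0.12 in control roots. miR164a ranged from 0.52 to 2.59 in lateral roots, -1.87 to 1.21 under drought and -1.92 to 1.76 for the interaction, and miR164b from -1.50 to 0.92 under drought and -0.38 to 2.55 for the interaction. The share difference of miR164d ranged from -5.18 to 4.69 points in control roots and from -24.7 to 10.0 points under drought.

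Correlations of same-numbered deviations were -0.27, 0.71 and 0.37 in taproots and -0.25, -0.086 and -0.020 in lateral roots. Between root types they were -0.052, -0.31 and 0.047 in control roots and 0.028, -0.31 and -0.30 under drought. These mixed values do not settle whether the replicate numbers pair the libraries. The main fits used no pairing, and the block changed no call of a member. With 1 to 6 counts of the minor members together in some libraries, depth limits their comparison.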
